A study of Homo sapiens with 8 samples.

Results

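The 36 genes described here carry glucose into the cell, break it down to pyruvate and lactate, and export the lactate. They also control the feeding of pyruvate into the citric acid cycle, and store glucose as glycogen. They were chosen by symbol as a fixed list, with earlier results of these data known. All 36 were found among the 43682 gene symbols of the RNA count tables. The libraries came from UM-RC-2, an established line of clear cell renal cell carcinoma whose VHL gene carries the mutation p.Arg82Pro per the labels. Cells of both groups stably expressed a construct delivered by lentivirus, either VHL or one labelled VEC, and were kept under blasticidin selection (10 µg/ml). There were 2 VEC and 2 VHL libraries, numbered 1 and 2 in each group, and no promoter or clone is named for either construct. The labels give total RNA for both replicate 1 libraries and polyA RNA for both replicate 2 libraries. Nothing in the labels says that the replicates came from separate cultures, so p-values describe these libraries and not a spread between cultures.

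Glycolysis turns glucose into pyruvate through a chain of cytosolic enzymes, several of which exist as isoforms encoded by separate genes. When oxygen is scarce, hypoxia-inducible factors raise the transcription of many of these genes. VHL is the substrate-binding part of a ubiquitin ligase that marks the alpha subunits of these factors for degradation, and clear cell renal carcinomas that lose it typically keep the factors active in air. The comparison of VHL with VEC libraries therefore addresses how glucose metabolism transcripts differ when VHL is put back.

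The libraries held between 16230291 and 50027348 counts, with both replicate 2 libraries the deeper. They fell apart by replicate number: across 21673 genes, r of log2(CPM + 1) was 0.991 and 0.978 within the numbered pairs, against 0.502 for VEC 1 with VEC 2 and 0.531 for VHL 1 with VHL 2. Pseudogenes took at most 2.07% of a replicate 1 library and at least 24.9% of a replicate 2 library. The introduced gene, VHL, was higher in its own libraries: in TMM-scaled CPM (counts scaled to the size of the library) the VEC libraries read 37.1 and 88.9 and the VHL libraries 146 and 151. Among 8 renal markers, 6 exceeded 1 CPM in all libraries, while EPCAM was at 0 in both replicate 1 libraries and NDUFA4L2 was at most 2.12 CPM. Of the 6, CA9 was at 67.5 and 61.8 CPM in VEC but at only 1.55 and 1.40 CPM in VHL. PAX2 was at 1.34 (VEC) and 1.18 (VHL) CPM in replicate 1. Endothelial markers were at 0, and the summed leukocyte markers were between 0.0864 and 1.78 CPM. VHL was compared with VEC within each replicate number, as was set for this list of genes. The fit held the replicate number as a term beside the group.

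Glucose metabolism genes were lower in VHL cells at most steps of the pathway. Of the 36 genes, 34 passed the filter on low counts, 20 fell, 0 rose, and 14 did not pass the threshold. The threshold was a Benjamini-Hochberg adjusted p under 0.05 over all 24417 tested genes in the quasi-likelihood test of edgeR. Among all tested genes, 2.35% were called lower and 0.749% higher. Since the list was set with earlier results known, its counts beside these shares are a description. The median log2 change of the 34 genes was -1.002, against -0.03 over all tested genes, and the pair medians were -0.86 and -1.04. In both pairs 24 of the 34 were lower, against 25.0% of all tested genes, and 12 had a log2 change of -1 or lower in both pairs, against 1.31%. Within single pairs, 13 had such a change in pair 1 (6.61% of all tested genes) and 19 in pair 2 (5.29%). Together the 36 genes took 2.81% of the protein-coding counts of VEC replicate 1 and 1.60% of those of VHL replicate 1, a 1.76-fold difference. In replicate 2 the shares were 2.19% and 1.01%, a 2.16-fold difference. Pseudogenes named after the 36 genes are not in these shares. In replicate 2 they held 1666526 (VEC) and 606785 (VHL) counts, more than the 719927 and 339671 on the genes.

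Every one of these calls rests on the replicate term. When the model held the group alone, edgeR called 0 of the 24417 tested genes (0%), with 22 at an unadjusted p under 0.05. It called 0 of the 34, with 3 at an unadjusted p under 0.05 and an adjusted p of 0.999991 for each. The Wald test of DESeq2 without the replicate term called 6 genes (0.0246%), none of them among the 34. In bulk RNA a lower level in all cells and a smaller share of expressing cells cannot be told apart.

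**Figure D1:**
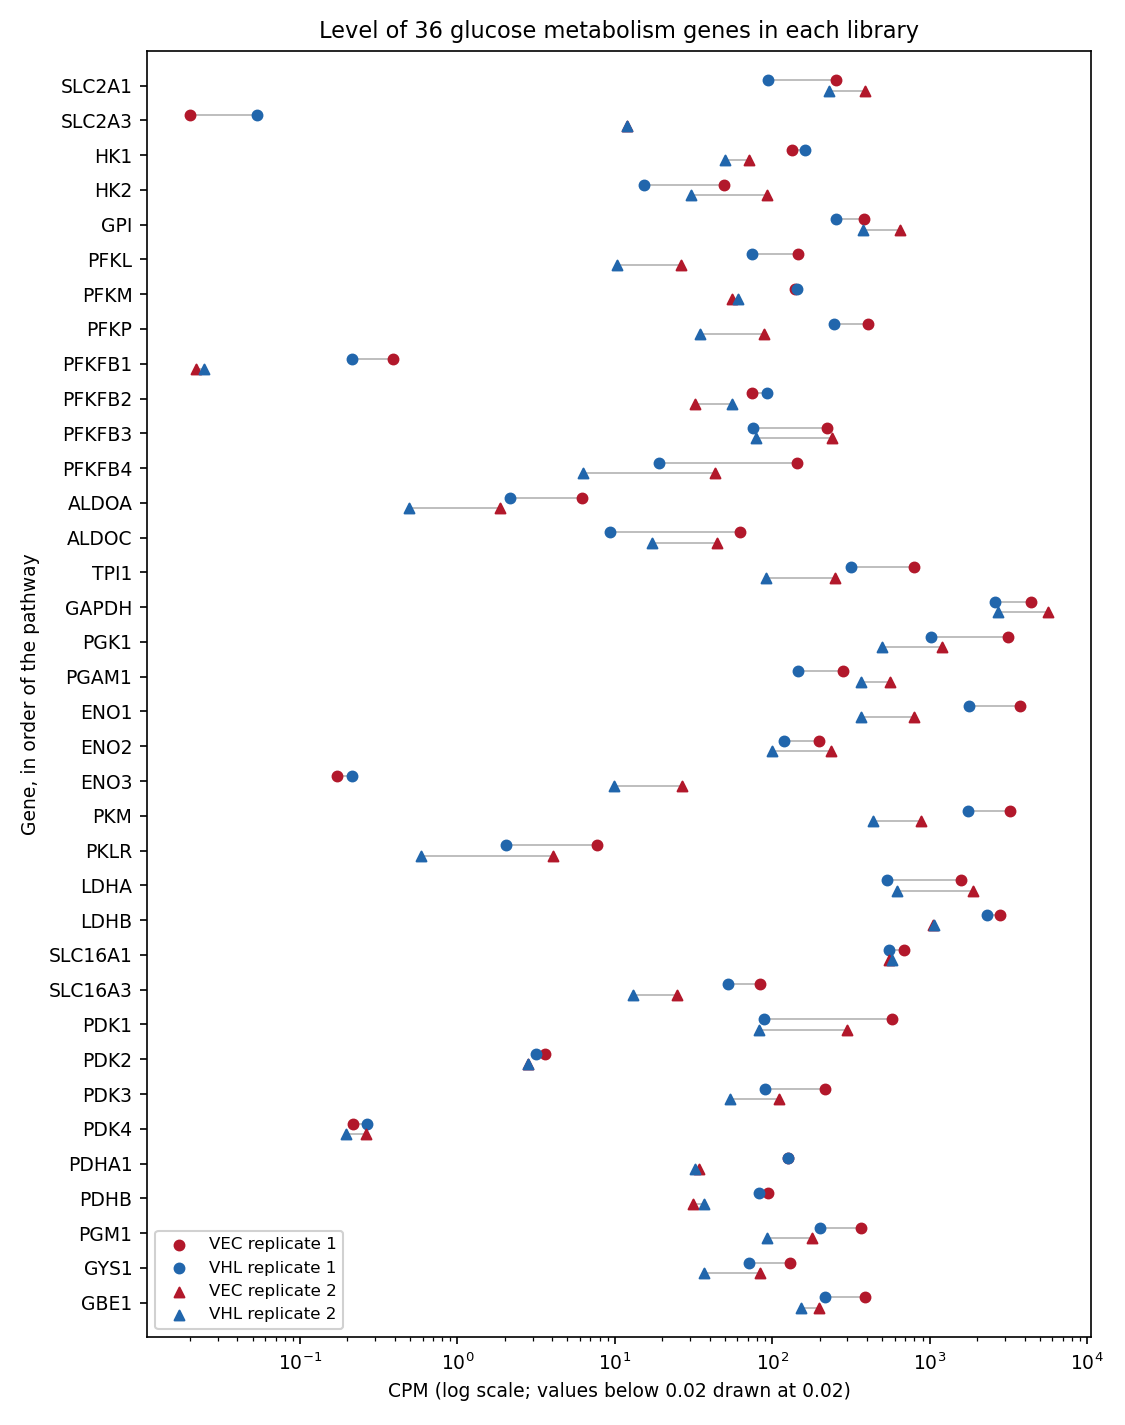
Level of each of the 36 genes in the 4 libraries, in CPM on a log axis, with red for VEC, blue for VHL, circles for replicate 1 and triangles for replicate 2; lines join the libraries of a pair. For 24 of the 34 tested genes the VHL point lies to the left of the VEC point in both pairs, and many genes differ more between replicates than between groups.

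At the entry of the pathway, the widely expressed glucose transporter gene SLC2A1 and the inducible hexokinase gene HK2 fell, while SLC2A3 and HK1 were not called. Values are given as VEC against VHL, with pair 1 for the replicate 1 libraries and pair 2 for the replicate 2 libraries. SLC2A1, which encodes the glucose transporter GLUT1, read 254 against 93.3 CPM in pair 1 and 390 against 230 CPM in pair 2. Both VHL libraries were below both VEC libraries, and the drop was deeper in replicate 1. Its log2 change was -1.10 ± 0.24 (SE, n = 2 per group, edgeR adjusted p = 0.000566), with -1.45 and -0.76 in the pairs. SLC2A3, the GLUT3 transporter gene, had 0 and 1 counts in replicate 1, where 3 counts correspond to at most 0.161 CPM, and 11.9 CPM in both libraries of replicate 2. In replicate 1, 193 (VEC) and 117 (VHL) counts lay on 3 pseudogenes named after it, against 57 and 37 in replicate 2. With these added it read 8.34 against 6.33 CPM in pair 1 and 13.2 against 12.8 CPM in pair 2.

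Hexokinases trap glucose in the cell by phosphorylating it. HK2 read 49.1 against 15.2 CPM in pair 1 and 92.2 against 30.3 CPM in pair 2. The falls were nearly equal in the pairs, at -1.69 and -1.60, and the fitted change was -1.65 ± 0.22 (edgeR adjusted p = 3.72e-11). HK1 read 134 against 162 CPM in pair 1 and 71.6 against 49.99 CPM in pair 2. Its pair changes had opposite signs, at 0.28 and -0.52, and it was not called (edgeR adjusted p = 0.953). GPI, the isomerase that follows, read 383 against 253 CPM in pair 1 and 644 against 376 CPM in pair 2. Its change of -0.69 ± 0.26 missed the threshold (edgeR adjusted p = 0.138), although it was lower in VHL in both pairs.

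Phosphofructokinase commits the sugar to glycolysis, and 2 of its 3 subunit genes fell. PFKL, the liver-type subunit, read 145 against 74.5 CPM in pair 1 and 26.1 against 10.4 CPM in pair 2. The VHL library of replicate 1 lay above the VEC library of replicate 2, so the groups overlapped unless the pairs were kept apart. The fitted change of PFKL was -1.14 ± 0.22 (edgeR adjusted p = 2.28e-05). PFKP, the platelet-type subunit, read 408 against 245 CPM in pair 1 and 88.1 against 34.5 CPM in pair 2, with the same overlap across replicates. Its fitted change was -1.04 ± 0.24 (edgeR adjusted p = 0.000992). PFKM, the muscle-type subunit, read 140 against 143 CPM in pair 1 and 55.2 against 60.6 CPM in pair 2, and its change of 0.08 ± 0.22 was not called (edgeR adjusted p = 0.973).

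The PFKFB genes encode bifunctional enzymes that make and remove the sugar phosphate that activates phosphofructokinase, and 2 of the 4 fell. PFKFB4 had the largest fall of the 20 genes, at 144 against 19.1 CPM in pair 1 and 43.2 against 6.32 CPM in pair 2. It was 7.18-fold lower, a log2 change of -2.84 ± 0.23 (edgeR adjusted p = 1.45e-31). The pairs gave -2.91 and -2.76, and both VHL libraries were below both VEC libraries. PFKFB3, the isoform whose kinase activity is strongly favoured, was at 224 and 240 CPM in VEC and at 75.4 and 78.8 CPM in VHL. Here the replicates of a group were close and the groups did not overlap, and the fitted change was -1.59 ± 0.23 (edgeR adjusted p = 3.13e-09). PFKFB2, the heart-type isoform, was higher in VHL in both pairs, with 74.2 against 92.5 CPM in pair 1 and 32.5 against 55.3 CPM in pair 2. Its change of 0.54 ± 0.21 was not called (edgeR adjusted p = 0.175). PFKFB1, the liver-type isoform, had 9, 4, 1 and 1 counts and was not tested.

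In the middle of the pathway aldolase, triose phosphate isomerase and phosphoglycerate kinase were lower. ALDOC, the brain-type aldolase, read 62.6 against 9.27 CPM in pair 1 and 44.4 against 17.2 CPM in pair 2. Both VHL libraries lay below both VEC libraries, with the deeper fall in replicate 1 (pair changes -2.75 and -1.37). The fitted change was -2.03 ± 0.23 (edgeR adjusted p = 5.27e-15). ALDOA, the aldolase of muscle and most other tissues, had only 143 and 40 counts in replicate 1 and 85 and 20 in replicate 2. It read 2.14 CPM in VHL of replicate 1, above the 1.86 CPM in VEC of replicate 2. Its log2 change was -1.70 ± 0.46 (edgeR adjusted p = 0.0123), and DESeq2 gave no adjusted p for it. The symbol ALDOA is uncertain, since in replicate 2 its pseudogene ALDOAP1 held 11970 (VEC) and 5094 (VHL) counts, against 1 count in each library of replicate 1. All its pseudogenes together held only 5 (VEC) and 3 (VHL) counts in replicate 1. The reason for its low level there was not tested.

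TPI1 interconverts the triose phosphates. It read 794 against 318 CPM in pair 1 and 251 against 91.4 CPM in pair 2, a change of -1.39 ± 0.25 (edgeR adjusted p = 9.81e-06). PGK1, which makes the first ATP of the pathway, read 3138 against 1026 CPM in pair 1 and 1191 against 499 CPM in pair 2. Its change was -1.43 ± 0.31 (edgeR adjusted p = 0.000354). For both genes the drop was present in each pair, and replicate 1 was the higher in both groups. For TPI1, VHL of replicate 1 lay above VEC of replicate 2. GAPDH and PGAM1 lie on either side of PGK1 in the pathway and had smaller changes. GAPDH read 4366 against 2613 CPM in pair 1 and 5658 against 2732 CPM in pair 2, with a change of -0.90 ± 0.35 that was not called (edgeR adjusted p = 0.177). PGAM1 read 280 against 146 CPM in pair 1 and 559 against 365 CPM in pair 2, with a change of -0.78 ± 0.25 that narrowly missed the threshold (edgeR adjusted p = 0.0557). Pseudogenes named after PGAM1 held 60.7% (VEC) and 59.2% (VHL) of their joint counts with it in replicate 2. PGAM4, another gene of this step, had 32 and 13 counts in replicate 1 and 20573 and 12899 in replicate 2. Whether reads were shared between PGAM1 and PGAM4 was not tested.

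Enolase makes phosphoenolpyruvate, and all 3 of its genes in the list were called lower, on unequal evidence. ENO1, the ubiquitous enolase, read 3718 against 1787 CPM in pair 1 and 795 against 364 CPM in pair 2 (pair changes -1.06 and -1.13, fitted -1.09 ± 0.31, edgeR adjusted p = 0.0205). As for PFKL, VHL of replicate 1 lay above VEC of replicate 2. ENO2, the neuronal enolase, read 197 against 119 CPM in pair 1 and 235 against 99.0 CPM in pair 2. Its groups did not overlap, and the fitted change was -0.99 ± 0.23 (edgeR adjusted p = 0.00162). ENO3, the muscle enolase, had 4 counts in each library of replicate 1, and 1220 (VEC) and 402 (VHL) in replicate 2. Its change of -1.28 ± 0.39 (edgeR adjusted p = 0.0382) thus came from the replicate 2 pair, and the replicate 1 pair gave 0.24. Of the muscle markers, ACTA1 alone had a like pattern. It held 1 and 0 counts in replicate 1, and 1361 (VEC) and 546 (VHL) in replicate 2. MYH7 and CKM were at most 0.0864 CPM. Genes outside the muscle markers also had few counts in replicate 1 and many in replicate 2. SLC2A3 held 0 (VEC) and 1 (VHL) in replicate 1, and 544 and 486 in replicate 2. For G6PC these counts were 0 and 0, and 1108 and 945. The source of this pattern was not tested.

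At the end of glycolysis LDHA and PKLR fell, while LDHB and PKM were not called. LDHA, the lactate dehydrogenase subunit that favours lactate formation, was at 1579 and 1881 CPM in VEC and at 532 and 618 CPM in VHL. The groups did not overlap, the pairs gave -1.57 and -1.61, and the fitted change was -1.59 ± 0.30 (edgeR adjusted p = 1.79e-05). LDHB, the subunit that is prominent in heart, read 2813 against 2310 CPM in pair 1 and 1043 against 1063 CPM in pair 2. Its change was -0.13 ± 0.31 (edgeR adjusted p = 0.971). PKM, the pyruvate kinase of most tissues, read 3220 against 1751 CPM in pair 1 and 885 against 438 CPM in pair 2. It was lower in both pairs but not called (-0.95 ± 0.31, edgeR adjusted p = 0.0606). PKLR, the pyruvate kinase of liver and red cells, was a low-count gene that held 177 against 38 counts in pair 1 and 184 against 24 in pair 2. Its change was -2.32 ± 0.43 (edgeR adjusted p = 1.10e-05), and DESeq2 gave no adjusted p for it.

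Lactate leaves the cell through monocarboxylate transporters. SLC16A3, the gene of the export-adapted transporter MCT4, read 83.8 against 52.0 CPM in pair 1 and 24.8 against 13.0 CPM in pair 2. It fell by 0.80 on the log2 scale (SE 0.22, edgeR adjusted p = 0.0111), with the replicates further apart than the groups. SLC16A1, the gene of MCT1, read 682 against 550 CPM in pair 1 and 553 against 573 CPM in pair 2, and its change of -0.13 ± 0.27 was not called (edgeR adjusted p = 0.960).

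Pyruvate dehydrogenase kinases switch off the enzyme complex that feeds pyruvate into the citric acid cycle, and 2 of the 4 fell. PDK1 read 577 against 87.9 CPM in pair 1 and 298 against 82.7 CPM in pair 2. Both VHL libraries were well below both VEC libraries, with pair changes of -2.71 and -1.85. The fitted change was -2.28 ± 0.25, a 4.86-fold lower level (edgeR adjusted p = 3.43e-16). PDK3 read 216 against 89.8 CPM in pair 1 and 110 against 54.0 CPM in pair 2, and its groups did not overlap either. Its change was -1.14 ± 0.22 (edgeR adjusted p = 4.51e-05). PDK2 was between 2.81 and 3.59 CPM in the 4 libraries and changed by -0.08 ± 0.41 (edgeR adjusted p = 0.991). PDK4, the isoform known for its induction in fasting, had 5, 5, 12 and 8 counts and was not tested.

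The genes of the complex these kinases act on were not called. PDHA1, the phosphorylated alpha subunit of pyruvate dehydrogenase, was at 126 CPM in both libraries of replicate 1 and at 34.2 and 32.1 CPM in replicate 2 (-0.04 ± 0.21, edgeR adjusted p = 0.991). PDHB, the beta subunit, read 93.4 against 82.9 CPM in pair 1 and 31.4 against 37.0 CPM in pair 2 (0.03 ± 0.21, edgeR adjusted p = 0.992). The pairs of PDHB had opposite signs, and the values of both genes differed more between replicates than between groups.

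Of the 3 glycogen genes in the list, 2 fell. PGM1, which links glucose phosphate to glycogen synthesis, read 364 against 200 CPM in pair 1 and 180 against 92.3 CPM in pair 2 (-0.91 ± 0.24, edgeR adjusted p = 0.00680). Its VHL library of replicate 1 lay above the VEC library of replicate 2. GYS1, the glycogen synthase of muscle and most tissues, read 129 against 71.0 CPM in pair 1 and 83.1 against 36.7 CPM in pair 2. Its groups did not overlap, and the change was -1.02 ± 0.22 (edgeR adjusted p = 0.000297). GBE1, the branching enzyme, read 388 against 216 CPM in pair 1 and 199 against 152 CPM in pair 2. Its change of -0.62 ± 0.24 was not called (edgeR adjusted p = 0.166), and the pair changes were -0.84 and -0.39.

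**Figure D2:**
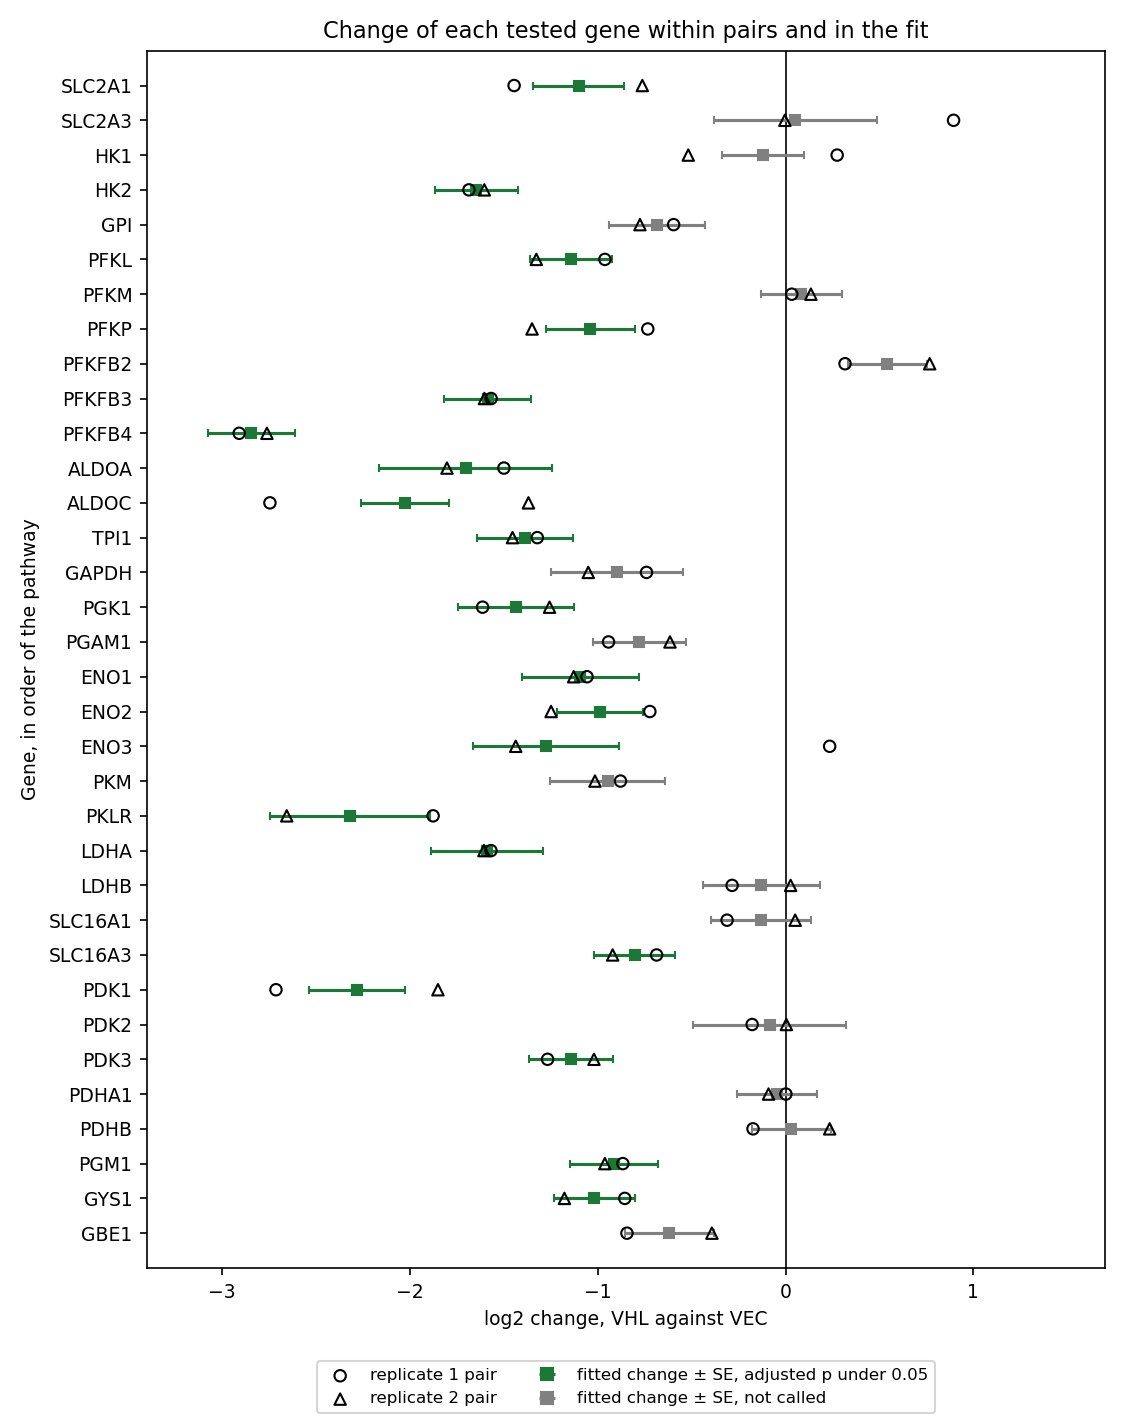
Log2 change of the 34 tested genes, VHL against VEC, in the replicate 1 pair (circles), in the replicate 2 pair (triangles) and in the fit with the replicate number (squares with SE bars, green where the adjusted p was under 0.05). The 20 green squares all lie below 0, from PFKFB4 at -2.84 to SLC16A3 at -0.80, and ENO3 is the only one of them with a pair on the other side.

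Isoforms of a step were set against each other by their count ratio within a library. The ratio depends on the lengths of both genes but not on scaling, and in its change from VEC to VHL the lengths cancel. The comparison of a ratio within 1 pair has no replicate, and its 95% interval covers counting error only. Of 16 ratios, 15 had a value in both pairs, and 13 of these were lower in VHL in both pairs. The pairs of genes were set with their values known, so this count is a description.

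Of LDHA plus LDHB counts, LDHA made up 35.9% against 18.7% in pair 1 and 64.3% against 36.8% in pair 2. The log2 ratio changed by -1.28 (interval -1.32 to -1.25) and by -1.63 (-1.66 to -1.61). With pseudogene counts added to both genes the changes were -1.29 and -1.68, the latter outside its interval. Of HK1 plus HK2 counts, HK2 made up 26.8% against 8.57% in pair 1 and 56.3% against 37.7% in pair 2. The shares of LDHA and HK2 also differed between replicates of a group, while the direction within a pair was the same. For PFKFB4 against PFKFB2 the log2 ratio changed by -3.23 (-3.42 to -3.05) and -3.54 (-3.75 to -3.33), the largest shift of the 15. For PFKFB4 against PFKFB3 the log2 ratio changed by -1.34 and -1.17.

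PDK1 made up 72.7% of PDK1 plus PDK3 counts in VEC of replicate 1 and 73.1% in VEC of replicate 2, nearly the same share. In VHL it made up 49.5% and 60.5%. The log2 ratio of PDK1 to its substrate gene PDHA1 changed by -2.72 (-2.82 to -2.61) and -1.76 (-1.88 to -1.64). Both ratios with opposite signs in the pairs came from aldolase and enolase. ENO2 to ENO1 changed by 0.33 and -0.12, and ALDOC to ALDOA by -1.23 and 0.56, the latter with an interval from -0.16 to 1.27. With pseudogene counts added to ALDOA the ratio in the replicate 2 pair became -0.25.

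**Figure D3:**
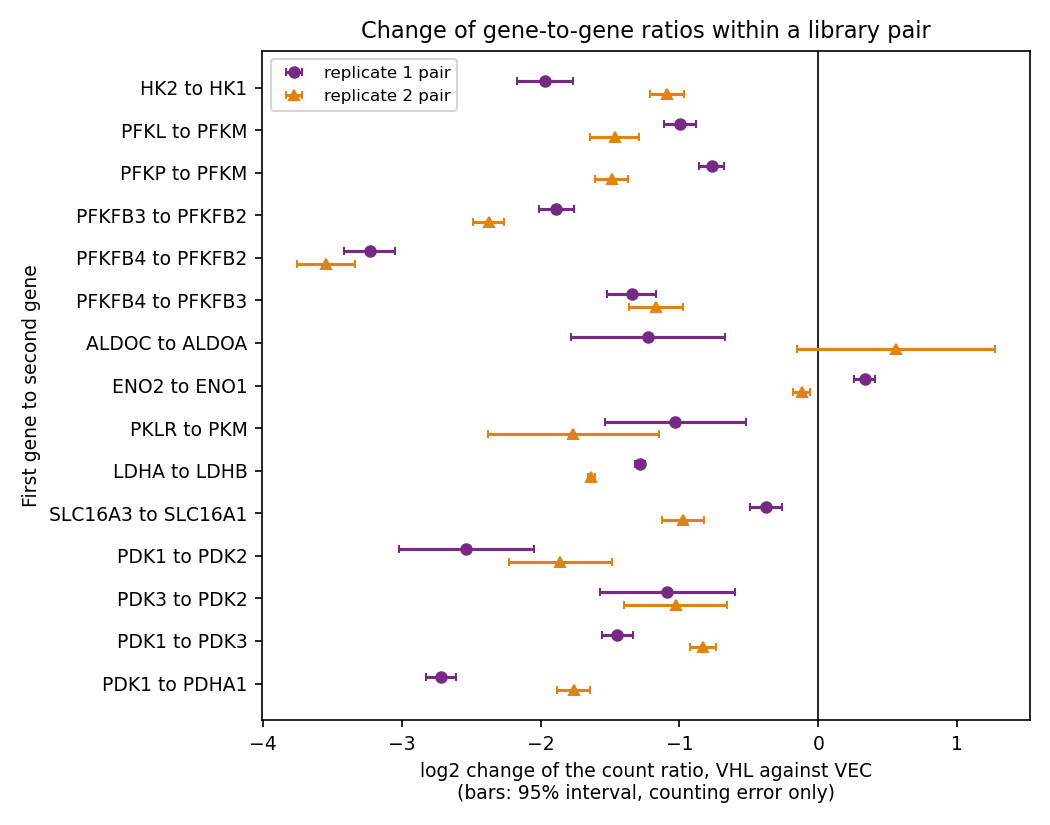
Log2 change, VHL against VEC, of the count ratio of gene pairs within the replicate 1 pair (purple circles) and the replicate 2 pair (orange triangles), with 95% intervals for counting error only. In 13 of the 15 ratios both points and their intervals lie below 0, and ALDOC to ALDOA and ENO2 to ENO1 have points on both sides.

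Many of these genes have processed pseudogenes, intronless copies whose reads can be hard to tell from those of the parent, and how the authors' counting placed such reads is not given in the sources used here. Pseudogenes named after the 36 genes held 3399 (VEC) and 1459 (VHL) counts in replicate 1, but 1666526 and 606785 in replicate 2. GAPDH has 64 of them in the tables. They held 2.38% and 2.17% of the counts of GAPDH plus its pseudogenes in replicate 1, and 84.98% and 82.6% in replicate 2. For LDHA the shares were 1.21% and 0.997% against 46.2% and 39.8%, and for PGK1 0.100% and 0.120% against 35.9% and 27.2%. Exceptions were ENO1, with at most 0.0606% in any library, PDK1 with 0%, SLC16A1 with at most 0.0640% and PDHA1 with at most 0.531%. SLC2A3 went the other way, with 100% and 99.2% in replicate 1 against 9.48% and 7.07% in replicate 2.

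The levels of GAPDH, LDHA, PGK1 and other genes with many pseudogene counts in replicate 2 are therefore uncertain there. Adding the pseudogene counts to each gene gave pair changes of -0.74 and -1.26 for GAPDH, -1.57 and -1.77 for LDHA, and -1.61 and -1.44 for PGK1. Refitted on such sums, all 20 genes were still called lower, and PKM was called as well (2.15% of all genes tested in that fit were called lower). In pair 1, where pseudogenes took at most 1.21% of the signal of either gene, the change was -1.57 for LDHA and -1.61 for PGK1 without such sums.

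**Figure D4:**
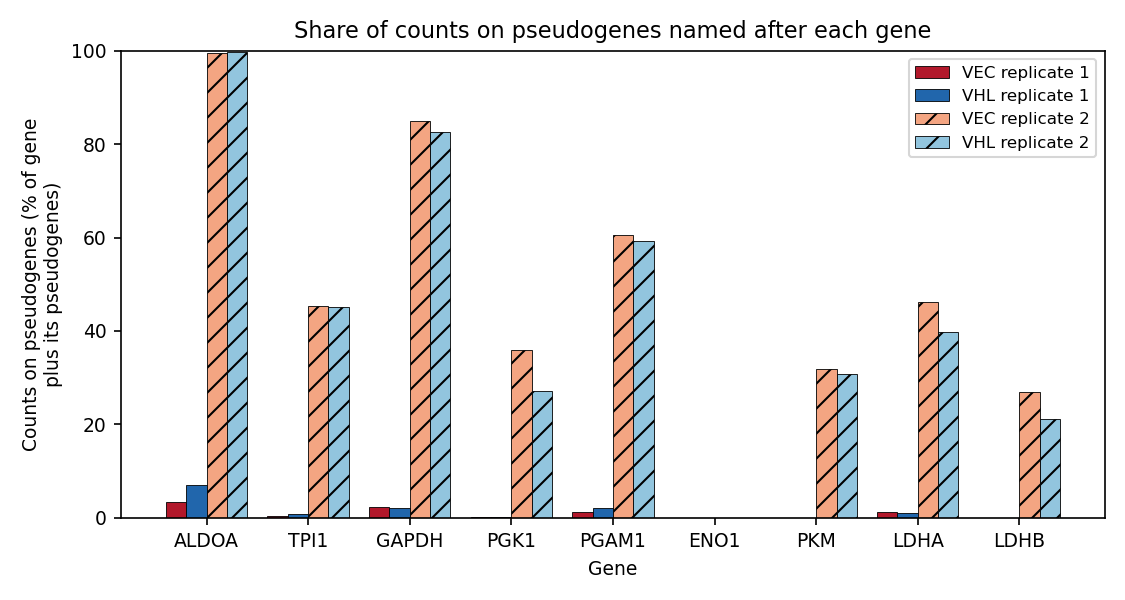
Counts on pseudogenes named after a gene, as a percentage of the counts of the gene plus those pseudogenes, for 9 glycolytic genes in the 4 libraries (solid bars replicate 1, hatched bars replicate 2). In replicate 1 the share is at most 6.98%, while in replicate 2 it is at least 21.1% for all but ENO1.

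The rest of glucose metabolism was read from 6 lists with 79 measured genes, 67 of which passed the filter. Of these, 3 fell and 1 rose, where 2.35% of all tested genes were called lower and 0.749% higher, and the median log2 change was -0.07. PHKA2, an alpha subunit of the kinase that activates glycogen phosphorylase, read 71.2 against 24.0 CPM in pair 1 and 61.2 against 21.6 CPM in pair 2. Its groups did not overlap, and the change was -1.53 ± 0.22 (edgeR adjusted p = 9.59e-10). PPP1R3C, which brings a phosphatase to glycogen, read 93.9 against 42.4 CPM in pair 1 and 45.9 against 29.9 CPM in pair 2 (-0.88 ± 0.21, edgeR adjusted p = 0.00286). The other 16 tested genes of the glycogen list were not called.

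SLC2A2, the glucose transporter GLUT2 of liver and proximal tubule, was the gene that rose. It read 12.1 against 29.5 CPM in pair 1 and 6.31 against 13.7 CPM in pair 2, so that SLC2A1 and SLC2A2 changed in opposite directions in both pairs. Its change was 1.20 ± 0.27 (edgeR adjusted p = 0.000707). PGK2, an intronless copy of PGK1 known from testis, had 5 and 0 counts in replicate 1 and 2657 and 723 in replicate 2. Its call (-1.78 ± 0.34, edgeR adjusted p = 3.12e-05) rests on the replicate 2 pair and is uncertain, because reads may be shared with PGK1. None was called of 9 tested genes of pyruvate entry and oxidation, 6 of gluconeogenesis and 9 of the pentose phosphate pathway, lists too short for a count of 0 to differ from those shares over all genes.

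The promoters of genes on both sides of the threshold are shown because hypoxia-response elements contain the letters ACGTG or GCGTG. The sequences are the 250 bases before an annotated start, from RefSeq on GRCh38.p14, while the counts were made on hg19. The table held 33 of the 36 genes, and SLC2A3, PFKFB2 and SLC16A1 were not in it. Where a gene had several starts, the window with most ACGTG matches is given. Matches on either strand to ACGTG or GCGTG are in capitals, and CACGTG holds a match to ACGTG on each strand. PGK1 is from chrX:78103998-78104247 (plus strand), LDHA from chr11:18394313-18394562 (plus), LDHB from chr12:21657843-21658092 (minus), ALDOC from chr17:28576896-28577145 (minus), PDK1 from chr2:172555840-172556089 (plus), PFKFB4 from chr3:48556804-48557053 (minus) and PDHB from chr3:58433833-58434082 (minus).
PGK1: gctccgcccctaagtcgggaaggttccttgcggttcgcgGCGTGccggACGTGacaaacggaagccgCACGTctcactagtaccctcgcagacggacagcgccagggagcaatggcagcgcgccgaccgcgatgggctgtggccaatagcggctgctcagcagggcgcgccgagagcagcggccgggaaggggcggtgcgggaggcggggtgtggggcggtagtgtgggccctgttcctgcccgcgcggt
LDHA: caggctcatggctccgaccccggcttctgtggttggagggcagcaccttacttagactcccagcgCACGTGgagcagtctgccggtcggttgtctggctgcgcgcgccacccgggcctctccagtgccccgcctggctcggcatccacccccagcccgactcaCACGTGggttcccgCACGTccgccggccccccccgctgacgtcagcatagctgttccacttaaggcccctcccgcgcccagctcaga
LDHB: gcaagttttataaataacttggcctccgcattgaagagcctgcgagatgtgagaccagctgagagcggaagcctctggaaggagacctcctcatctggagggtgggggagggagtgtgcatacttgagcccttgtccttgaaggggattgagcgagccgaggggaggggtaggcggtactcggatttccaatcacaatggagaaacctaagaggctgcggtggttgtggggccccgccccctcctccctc
ALDOC: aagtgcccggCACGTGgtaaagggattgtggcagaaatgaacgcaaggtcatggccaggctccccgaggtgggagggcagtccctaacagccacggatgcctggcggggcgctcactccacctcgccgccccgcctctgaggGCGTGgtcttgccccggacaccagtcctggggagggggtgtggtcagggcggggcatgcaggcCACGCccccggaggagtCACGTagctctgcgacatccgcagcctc
PDK1: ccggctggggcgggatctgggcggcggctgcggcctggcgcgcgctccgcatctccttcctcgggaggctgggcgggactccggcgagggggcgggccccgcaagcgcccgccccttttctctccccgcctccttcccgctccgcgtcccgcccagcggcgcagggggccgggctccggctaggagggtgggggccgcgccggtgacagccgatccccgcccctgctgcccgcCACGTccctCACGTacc
PFKFB4: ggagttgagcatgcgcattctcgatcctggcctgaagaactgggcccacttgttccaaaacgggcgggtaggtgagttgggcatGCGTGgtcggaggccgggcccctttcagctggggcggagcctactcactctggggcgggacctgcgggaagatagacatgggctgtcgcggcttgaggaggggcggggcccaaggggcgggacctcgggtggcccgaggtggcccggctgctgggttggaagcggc
PDHB: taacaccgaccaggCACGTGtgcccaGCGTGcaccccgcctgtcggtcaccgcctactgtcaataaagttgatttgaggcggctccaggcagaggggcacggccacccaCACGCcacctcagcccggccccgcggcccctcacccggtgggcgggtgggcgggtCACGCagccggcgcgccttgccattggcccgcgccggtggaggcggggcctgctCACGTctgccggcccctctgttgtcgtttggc

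Of these, LDHA held 5 matches to ACGTG, ALDOC 3, PGK1 2 and PDK1 2, while LDHB held none to either motif. Among the promoters shown, matches and calls did not always go together. PFKFB4, with the largest fall, held 0 matches to ACGTG and 1 to GCGTG, and PDHB, which was not called, held 3 of each. Over all starts, 14 of the 20 genes that fell (70%) had a window with ACGTG, against 6 of the 13 others in the table (46.2%) and 5935 of all 27305 genes (21.7%). Counted by window, the shares were 44.7% of 38, 21.4% of 28 and 18.5% of 35116. The difference between these shares was not tested. Genes differ in the number of annotated starts, and a match describes letters, not a bound site.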

How the data were processed

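RNA was profiled in 4 UM-RC-2 libraries, 2 VEC and 2 VHL, grouped by title. Each title names both RNA and ChIP-seq, while the molecule labels give RNA. The authors deposited raw counts per symbol; per the file headers, these came from hg19 alignments. The submitters' processing notes list featureCounts and HOMER, with no version. Aligner, annotation, strand use and the handling of multiply placed reads are not given in the sources used here. The H3K27ac tables name regions without positions and were not used here.

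The tests used edgeR 4.0.16 in R 4.3.3. After filterByExpr, 24417 of 43682 symbols remained. TMM scaling and the quasi-likelihood F test (two-sided) followed, and p-values were adjusted over all tested symbols by the Benjamini-Hochberg method, with 0.05 as the threshold. The model held the replicate number and the group, which leaves 1 residual degree of freedom. The replicate numbers were treated as a batch because a comparison within them was set for this list of genes. The labelled RNA (total or polyA) and the form of the alignment names also differ with them. Libraries of 1 number deviated together from their group means (r = 0.983 over 21673 genes, a description). An SE is the size of the log2 change over the square root of its F value. The spread in F was estimated in part from all tested genes, so an SE is not the spread of a gene's own pairs. HK1, with pair changes of 0.28 and -0.52, and HK2, with -1.69 and -1.60, both had an SE of 0.22. Pair changes are differences in log2 CPM at a prior count of 2. CPM values use TMM-scaled library sizes, and counting intervals are at 95% and cover counting error only. Alternatives were a model without the replicate term, other scalings and filters, DESeq2 1.42.0, protein-coding genes alone, pseudogene counts added to their parents, and left-out libraries. RefSeq (GRCh38.p14) gave a class for 97.84% of the symbols. All 36 genes are accounted for, with values per library for those called and their isoforms. Of the other pathway lists, all called genes are named. The 36 genes, the lists and the tests were chosen with earlier results of these data known.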

Additional observations from a re-analysis of the deposited data

How the results depend on the processing

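The calls depended on the replicate block. With no replicate block, edgeR called 0 of all genes, 0 of the 36 genes and 0 of the other pathway genes, and each library left out in turn in that model also gave 0 for all 3 counts, with between 1 and 11 genes at an unadjusted p under 0.05. Without the block the DESeq2 Wald test called 6 genes, 0 of the 36 and 0 pathway genes, and protein-coding genes alone gave 0, 0 and 0 in edgeR (104 at an unadjusted p under 0.05), both chosen after seeing the data. The median log2 change of the tested genes of the 36 was -1.32, -1.14, -0.80 and -0.50 as each library was left out. In that model 22 of 35 tested genes were below 0 without VEC replicate 1. Of the 20 genes called with the block, PFKL (0.70), PFKP (0.67), ENO1 (0.44) and SLC16A3 (0.39) turned positive there, and ENO3 (4.87) without VEC replicate 2. Among those not called, PKM (0.31), LDHB (0.69), PDHA1 (1.21), PDHB (0.93), SLC16A1 (0.02) and others were also above 0 without VEC replicate 1; each such fit compares libraries of unequal replicate numbers. Without replicate 1 the median was -1.04 and ENO3 was -1.44, and without replicate 2 the median was -0.86 at either prior count and ENO3 was 0.24 (prior count 2) or 0.29 (0.5). With the block, the 8 settings called between 20 and 25 of the 36. Over all genes, 756 of 24417 tested were called in the main fit and 640 of 32804 with no low-count filter. Among protein-coding genes alone 993 of 13889 were called. Of the 20 genes called in the main fit, 17 passed in all 8 settings. The exceptions were ENO3, with adjusted p up to 0.712, and ALDOA and PKLR, without an adjusted p in DESeq2. GPI, GAPDH, PGAM1, PKM and GBE1 were called lower in 5 to 7 of the 8 settings, and PFKFB2 higher in 1, that with at least 20 counts in every library (adjusted p = 0.0275, edgeR). Counts over all genes rose to 1181 with that filter, which tested only 12141 genes and 32 of the 36. They rose to 1203 of 24417 in the blocked DESeq2 Wald test. Pathway genes called rose to 7 with that filter, and to 8 in DESeq2 and among protein-coding genes alone; the cause was not tested. The ratio of ALDOC to ALDOA in the replicate 2 pair turned to -0.25 with pseudogene counts added, also chosen after seeing the data. That of LDHA to LDHB in the same pair moved from -1.63 to -1.68. PFKFB1 and PDK4 had too few counts to be tested.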
